A study of Homo sapiens with 15 samples.

Results

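Messenger RNA of 7 prostate lineage transcription factors, FOXA1, FOXA2, HOXB13, GATA2, GRHL2, SOX9 and HNF4G, was examined in 5 sublines of VCaP, an established human prostate cancer cell line. The 7 genes were taken by name from the 58381 genes listed in each library. Bulk RNA-seq of 3 replicates per subline gave 15 libraries. VCaP-T was kept for 7 months in RPMI medium with charcoal-stripped serum and 10 nM testosterone, and VCaP-CT is VCaP-T after 10 more months in which, by the written protocol, testosterone was lowered to 0.1 nM. VCaP-CT-ER was derived from VCaP-CT by growth in 10 µM enzalutamide, an antiandrogen, until the cells resumed growth, and appears in the protocol as VCaP-CT-ET. Growth of VCaP-CT under bicalutamide, an older antiandrogen, gave VCaP-CT-BR, and enzalutamide given to those cells once they no longer responded to bicalutamide gave VCaP-CT-BR-ER, at doses the labels leave out. The 4 steps that follow from this are here called the testosterone step (VCaP-CT against VCaP-T), the first enzalutamide step (VCaP-CT-ER against VCaP-CT), the bicalutamide step (VCaP-CT-BR against VCaP-CT) and the second enzalutamide step (VCaP-CT-BR-ER against VCaP-CT-BR). The labels are not in accord with each other: the treatment field lists 10 nM testosterone for the second culture period of all 4 derived sublines, and that of VCaP-CT-BR mentions enzalutamide as well as bicalutamide. One derivation of each subline is described, so treatment, time in culture and derivation cannot be told apart. The study calls the 3 replicates biological, and p-values measure the spread between replicate libraries of 1 derivation only.

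FOXA1 and FOXA2 are forkhead pioneer factors, which bind DNA in closed chromatin and open it for other factors. FOXA1, HOXB13 and GATA2 sit with steroid receptors at the enhancers of luminal prostate cells and help to set where these receptors bind, and GRHL2 keeps epithelial genes such as those of cell junctions active. SOX9 is used in the budding of the embryonic prostate and in cartilage, whereas FOXA2 and HNF4G are better known from endoderm such as liver and gut, FOXA2 also from neuroendocrine prostate cancer and HNF4G from prostate cancers that switch on gut genes.

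RefSeq promoter windows were matched for 2 of the 7 genes, GATA2 (2 start sites) and FOXA1, which both rose in the testosterone step. They are shown because a reader can see in them the density of CG pairs, the target of DNA methylation, which are in capitals. Each is written 5′ to 3′ on the minus strand, as in build GRCh38.p14. The GATA2 windows are the 250 bases before each start, the second of them inside the gene, and for FOXA1 the part of the window outside exons is given, also inside the gene as GENCODE outlines it.
GATA2 outer start, chr3:128493202-128493451: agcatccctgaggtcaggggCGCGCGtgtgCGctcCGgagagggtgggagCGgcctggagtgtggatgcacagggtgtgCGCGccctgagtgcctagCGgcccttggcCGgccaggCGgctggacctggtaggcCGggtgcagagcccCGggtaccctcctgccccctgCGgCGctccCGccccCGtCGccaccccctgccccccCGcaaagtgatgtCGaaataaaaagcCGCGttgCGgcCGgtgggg
GATA2 inner start, chr3:128488531-128488780: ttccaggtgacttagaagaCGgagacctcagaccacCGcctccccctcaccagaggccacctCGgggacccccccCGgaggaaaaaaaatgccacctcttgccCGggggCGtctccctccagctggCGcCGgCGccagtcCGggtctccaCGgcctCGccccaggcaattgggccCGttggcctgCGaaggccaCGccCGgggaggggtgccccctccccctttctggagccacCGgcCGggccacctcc
FOXA1, chr14:37595349-37595499: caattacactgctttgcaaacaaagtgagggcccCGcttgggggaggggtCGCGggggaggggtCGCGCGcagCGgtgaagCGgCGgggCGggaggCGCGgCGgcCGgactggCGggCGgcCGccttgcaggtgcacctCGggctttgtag
The outer and inner GATA2 windows hold 24 and 18 CG pairs, and the whole 250-base FOXA1 window holds 26, where the median of 35116 windows is 11. The 2 GATA2 windows hold more pairs than 76.3% and 63.2% of these windows, and the FOXA1 window more than 80.4%. Motifs for the families of the members were searched on both strands: TGTTTAC for forkhead factors, AGATAA for GATA factors, CCAATAAA for HOXB13, AACCNGTT for grainyhead factors, ACAATGG for SOX factors and CAAAGTCCA for HNF4 factors. They occur in 2.98%, 9.17%, 0.863%, 1.49%, 2.62% and 0.325% of all windows, and none of these letter strings was found in the 3 windows.

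The libraries held 33665716 to 46935279 counted fragments, so that a floor of 3 counts corresponds to 0.0639 to 0.0891 counts per 1000000 counted (CPM). The floor covers counting error only, whereas the 95% intervals below include the spread between replicate libraries. Levels below are CPM scaled by TMM, and levels of different genes are compared only in TPM, the same measure for transcripts, which also divides by exon length. Luminal and prostate markers such as KRT8, KRT18, EPCAM and KLK2 were present in every subline. All 6 luminal markers fell in the testosterone step, from a summed 3810 to 4116 CPM to 1753 to 1773 CPM, and in bulk RNA a smaller number of expressing cells and less RNA per cell cannot be told apart. Some markers of other cell types were at or near 0: COL1A2 and CD3E had no count in any library, and the means of KRT5, TP63, CDH5 and PTPRC were at most 0.0952 CPM in any subline. Others were present and moved with the sublines. In VCaP-T, KRT14 was at 10.1 CPM, COL1A1 at 6.56 CPM and PECAM1 at 2.94 CPM, against at most 2.52, 1.01 and 2.57 CPM elsewhere. LYZ was at 52.7 CPM in VCaP-T and at most at 0.982 CPM elsewhere, KRT15 at 12.4 CPM in VCaP-T and at most at 0.13 CPM elsewhere. LUM was at 6.24 CPM in VCaP-CT and 196 CPM in VCaP-CT-ER, and at 23.5 CPM in VCaP-CT-BR and 236 CPM in VCaP-CT-BR-ER. With LUM, the sum of the 5 fibroblast markers went from between 6.41 and 7.97 CPM in VCaP-CT to between 184 and 216 CPM in VCaP-CT-ER. VWF, of the 3 endothelial markers, ran from 12 CPM in VCaP-T down to 0.121 CPM in VCaP-CT-ER. The part of these shifts in the results for the 7 factors was not tested.

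The 7 factors covered the whole range of expression. By TPM, HOXB13, FOXA1 and GATA2 were among the most abundant messages: of 19792 protein-coding genes, HOXB13 ranked between 114 and 234 over the 5 sublines, FOXA1 between 142 and 213, and GATA2 between 217 and 846. GRHL2 followed at ranks 879 to 1850 and SOX9 at 1942 to 6199. HNF4G moved between rank 13488 in VCaP-CT and rank 6588 in VCaP-CT-ER. FOXA2 was near the floor in all sublines, with at most 28 counts in a library, and did not pass the filter on low counts that the other 6 passed.

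**Figure D1:**
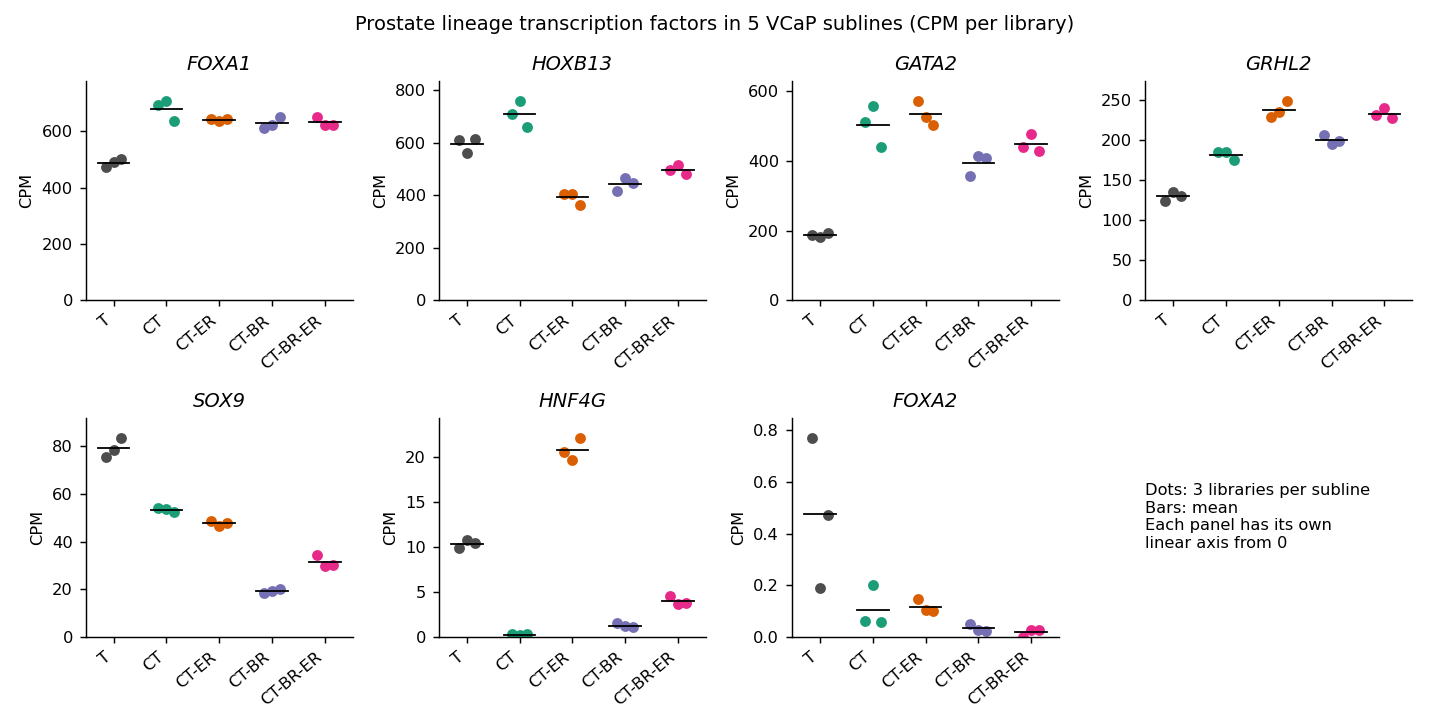
Level of each of the 7 factors (TMM-scaled CPM, linear axes that start at 0 and differ between panels) in the 3 libraries (dots) of each of 5 VCaP sublines, with the mean as a bar. GATA2 in the 3 VCaP-T libraries, at 180.4 to 193 CPM, lies below all 12 other libraries, and HNF4G is lowest in VCaP-CT, at 0.171 to 0.279 CPM.

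FOXA1, the pioneer factor of luminal prostate cells, measured 473, 491 and 502 CPM in the VCaP-T libraries. The VCaP-CT libraries gave 693, 707 and 637 CPM. All derived libraries exceeded all VCaP-T libraries, and those of the 3 antagonist-grown sublines lay together, with 634 to 643 CPM in VCaP-CT-ER, 612.5 to 649 CPM for VCaP-CT-BR and 621.5 to 649.6 CPM for VCaP-CT-BR-ER. FOXA1 rose 1.39-fold in the testosterone step, by a log2 fold change of 0.48 ± 0.05 (SE) with an adjusted p of 9.49e-09. Here and below, adjusted p is that of the quasi-likelihood test in edgeR with Benjamini-Hochberg adjustment, over 19621 genes in the main fit. Fits with another filter or fewer libraries adjust over the genes that each of them keeps. A gene is called below 0.05. The 4 derived sublines did not separate from their neighbours when ordered by FOXA1 level, with log2 differences of 0.01 to 0.09 between neighbours and adjusted p of 0.108 or more, whereas the lowest of them, VCaP-CT-BR, was above VCaP-T by 0.36 on the log2 scale (adjusted p = 4.08e-07). VCaP-CT-BR was called lower than VCaP-CT, by −0.11 ± 0.05 on the log2 scale with an adjusted p of 0.0423, but the libraries of both overlapped. This call was lost without the filter (adjusted p = 0.092), in a fit of only the sublines compared (0.136), with the replicate block (0.0552) and without any of 7 single libraries. These were VCaP-CT replicate 1 and replicate 2 (adjusted p of 0.192 and 0.256), VCaP-CT-BR replicate 1 and replicate 2 (0.124 and 0.097), VCaP-T replicate 2 (0.0554), VCaP-CT-ER replicate 2 (0.0516) and VCaP-CT-BR-ER replicate 3 (0.0519).

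FOXA2, the paralogue used in liver, gut and neuroendocrine cells, had 28, 7 and 20 counts in the VCaP-T libraries. It had 2, 7 and 2 counts in the libraries of VCaP-CT, 7, 5 and 4 in those of VCaP-CT-ER, 2, 1 and 1 in those of VCaP-CT-BR, and 0, 1 and 1 in those of VCaP-CT-BR-ER. VCaP-T replicate 1 and replicate 3 were above all other libraries, and VCaP-T replicate 2, with 7 counts, was level with the highest count of VCaP-CT and VCaP-CT-ER. Without the filter, FOXA2 was called lower in VCaP-CT than in VCaP-T, by −2.15 ± 0.55 on the log2 scale with an adjusted p of 0.000364, from means of 0.105 and 0.477 CPM. The libraries of both bicalutamide-derived sublines stayed under the floor of 3 counts, and no fold change is given for them.

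HOXB13, a homeobox factor of the prostate and distal colon, measured 612, 560 and 613 CPM in VCaP-T. It measured 709, 759.6 and 659 CPM in VCaP-CT. The libraries of VCaP-CT-ER were the lowest, at 406, 405 and 364.5 CPM, followed by those of VCaP-CT-BR at 415, 465 and 446 CPM and of VCaP-CT-BR-ER at 496, 516 and 483 CPM. The 3 antagonist-grown sublines thus lay below both VCaP-T and VCaP-CT without overlap. HOXB13 rose 1.19-fold in the testosterone step (log2 0.25 ± 0.06, adjusted p = 0.000811). It fell 1.81-fold in the first enzalutamide step (log2 −0.86 ± 0.06, adjusted p = 7.43e-11) and 1.6-fold in the bicalutamide step (log2 −0.68 ± 0.06, adjusted p = 6.05e-09). It rose in the second enzalutamide step by 0.17 ± 0.06 (adjusted p = 0.0232), a call that was lost without VCaP-CT-BR replicate 1 (adjusted p = 0.0966) or VCaP-CT-BR-ER replicate 2 (adjusted p = 0.0745). Every neighbour in the order of the 5 levels was called different, the last step, from VCaP-CT-BR down to VCaP-CT-ER, by 0.17 on the log2 scale with an adjusted p of 0.0172. That last call was lost without VCaP-CT-ER replicate 3, VCaP-CT-BR replicate 2 or VCaP-CT-BR replicate 3, at adjusted p of 0.16, 0.129 and 0.0654.

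GATA2, a zinc finger factor that acts beside FOXA1 at prostate enhancers, rose the most of the 6 tested members in the testosterone step. The VCaP-T libraries measured 187, 180.4 and 193 CPM. The VCaP-CT libraries measured 512, 558 and 439 CPM. No derived library was below 357 CPM: VCaP-CT-ER ranged from 504 to 572 CPM and VCaP-CT-BR from 357 to 414 CPM, with VCaP-CT-BR-ER between at 428 to 479 CPM. Both enzalutamide-grown sublines overlapped with VCaP-CT. GATA2 rose 2.69-fold in the testosterone step, by 1.43 ± 0.08 on the log2 scale (adjusted p = 5.85e-13). Against VCaP-CT it was 0.09 ± 0.07 in VCaP-CT-ER (adjusted p = 0.322), and fell in VCaP-CT-BR by 0.35 (SE 0.07, adjusted p = 0.000382). In the second enzalutamide step it was called higher by 0.19 ± 0.07 (adjusted p = 0.0425), a call lost without any of 4 single libraries, with the weakest value, 0.14 and an adjusted p of 0.173, without VCaP-CT-BR replicate 1. The others were VCaP-CT replicate 1 and VCaP-CT-BR-ER replicate 1 and replicate 2, with adjusted p of 0.072, 0.0564 and 0.149. In the order of levels, the highest 3, VCaP-CT-ER before VCaP-CT before VCaP-CT-BR-ER, did not separate from their neighbours, at adjusted p of 0.322 and 0.0674.

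GRHL2, a grainyhead factor of epithelia, rose at every step. It measured 124, 135 and 130.1 CPM in VCaP-T and 185, 185 and 175 CPM in VCaP-CT. VCaP-CT-ER gave 229, 235 and 249 CPM. VCaP-CT-BR gave 206, 195 and 199.5 CPM, against 231.5, 240.2 and 228 CPM in VCaP-CT-BR-ER. VCaP-T lay below all other sublines, and both enzalutamide-grown sublines lay above the 3 others. GRHL2 rose by 0.49 ± 0.05 on the log2 scale in the testosterone step (adjusted p = 1.28e-08), by 0.39 ± 0.05 in the first enzalutamide step (adjusted p = 3.62e-07) and by 0.22 ± 0.05 in the second (adjusted p = 0.000701). The rise in the bicalutamide step, 0.14 ± 0.05 with an adjusted p of 0.015, was lost with upper quartile scaling (adjusted p = 0.0695) and without VCaP-CT replicate 3 (adjusted p = 0.0882) or VCaP-CT-BR replicate 1 (adjusted p = 0.0771). The levels of both enzalutamide-grown sublines did not separate, with a difference of 0.03 and an adjusted p of 0.663. Against VCaP-T, the level was 1.84-fold higher in VCaP-CT-ER (adjusted p = 6.05e-13) and 1.8-fold higher for VCaP-CT-BR-ER (adjusted p = 9.69e-13).

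SOX9, a high mobility group factor of progenitor cells and cartilage, was highest in VCaP-T, at 75.7, 78.4 and 83.7 CPM. It measured 54.2, 53.6 and 52.4 CPM in VCaP-CT and 48.7, 46.7 and 47.7 CPM in VCaP-CT-ER. The lowest libraries were those of VCaP-CT-BR, at 18.6, 19.1 and 19.9 CPM, with VCaP-CT-BR-ER between, at 34.3, 29.9 and 30.3 CPM. No 2 sublines overlapped. SOX9 fell 1.48-fold in the testosterone step (log2 −0.57 ± 0.06, adjusted p = 1.95e-08) and a further 2.78-fold in the bicalutamide step (log2 −1.47 ± 0.06, adjusted p = 8.08e-14), to a level 4.12-fold below VCaP-T. It rose 1.64-fold in the second enzalutamide step (log2 0.71 ± 0.06, adjusted p = 7.1e-09). The fall in the first enzalutamide step was small, −0.16 ± 0.06 with an adjusted p of 0.0194, and was lost without the filter (adjusted p = 0.137) and without any of 4 single libraries, namely VCaP-CT replicate 1 and replicate 2 and VCaP-CT-ER replicate 2 and replicate 3, at adjusted p of 0.0736, 0.0509, 0.0889 and 0.0644.

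HNF4G, a nuclear receptor of the gut lineage, had the widest range of the members. Its counts were 359, 398 and 442 in VCaP-T, and 9, 6 and 10 in VCaP-CT. They were 994, 943 and 893 in VCaP-CT-ER, against 59, 45 and 43 in the libraries of VCaP-CT-BR, and 188, 135 and 142 in those of VCaP-CT-BR-ER. In CPM the means were 10.4 ± 0.476 (SD, n = 3), 0.241 ± 0.0606, 20.8 ± 1.26, 1.26 ± 0.242 and 3.98 ± 0.507 in the same order. The libraries of no 2 sublines overlapped, and all neighbours in the order of levels were called different. HNF4G fell 42.6-fold in the testosterone step, by −5.41 ± 0.18 on the log2 scale (adjusted p = 1.45e-16), and was 85.4-fold higher in VCaP-CT-ER than in VCaP-CT (log2 6.42 ± 0.16, adjusted p = 2.93e-18), which put it 2.01-fold above VCaP-T (adjusted p = 2.07e-09). It rose 5.17-fold in the bicalutamide step (log2 2.37 ± 0.25, adjusted p = 1.16e-07) and 3.18-fold in the second enzalutamide step (log2 1.67 ± 0.14, adjusted p = 4.32e-09).

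In the testosterone step, which asks how the factors stand after long growth at low testosterone, FOXA1, HOXB13, GATA2 and GRHL2 rose and SOX9 and HNF4G fell. All 6 tested members were called, with no overlap between the libraries of both sublines for any of them, as for 66.6% of all tested genes. In that comparison 33.1% of all tested genes were called higher and 32.2% lower, so a call by itself was common. With a change of at least 2-fold also required, 2 members were called, GATA2 and HNF4G, beside 4084 of the 19621 genes tested.

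In the first enzalutamide step, which asks the same after growth under an antagonist, HNF4G and GRHL2 rose, HOXB13 and SOX9 fell, and FOXA1 and GATA2 were not called. The 2 rises and 2 falls among 6 tested members stood beside 29.6% of all genes called higher and 31.2% called lower. For FOXA1 the 95% interval of the log2 change was −0.19 to 0.02 (FOXA1 was called with upper quartile scaling, adjusted p = 0.0491, and without VCaP-CT replicate 3, adjusted p = 0.0461), and for GATA2 it was −0.08 to 0.25.

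In the bicalutamide step HNF4G and GRHL2 rose, and FOXA1, HOXB13, GATA2 and SOX9 were called lower. Of all genes 26.1% were called higher and 27.0% lower. For 5 of the 6 members the libraries did not overlap, FOXA1 being the exception, as for 57.7% of all tested genes. This step shares the VCaP-CT libraries with the first enzalutamide step. The values of both stood at −0.16 (enzalutamide) and −1.47 (bicalutamide) for SOX9 and at 6.42 and 2.37 for HNF4G. When VCaP-CT-BR was set directly against VCaP-CT-ER, SOX9 was 2.48-fold and HNF4G 16.5-fold lower in VCaP-CT-BR (adjusted p of 1.21e-13 and 5.16e-17).

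In the second enzalutamide step no member was called lower by edgeR, nor was any at an unadjusted p under 0.05 (0 of 6) or with DESeq2 (0 of 6). HOXB13, GATA2, GRHL2, SOX9 and HNF4G rose and FOXA1 was at 0.01 ± 0.05 (adjusted p = 0.917). The share of genes called higher was 21.2% and lower 21.7%.

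**Figure D2:**
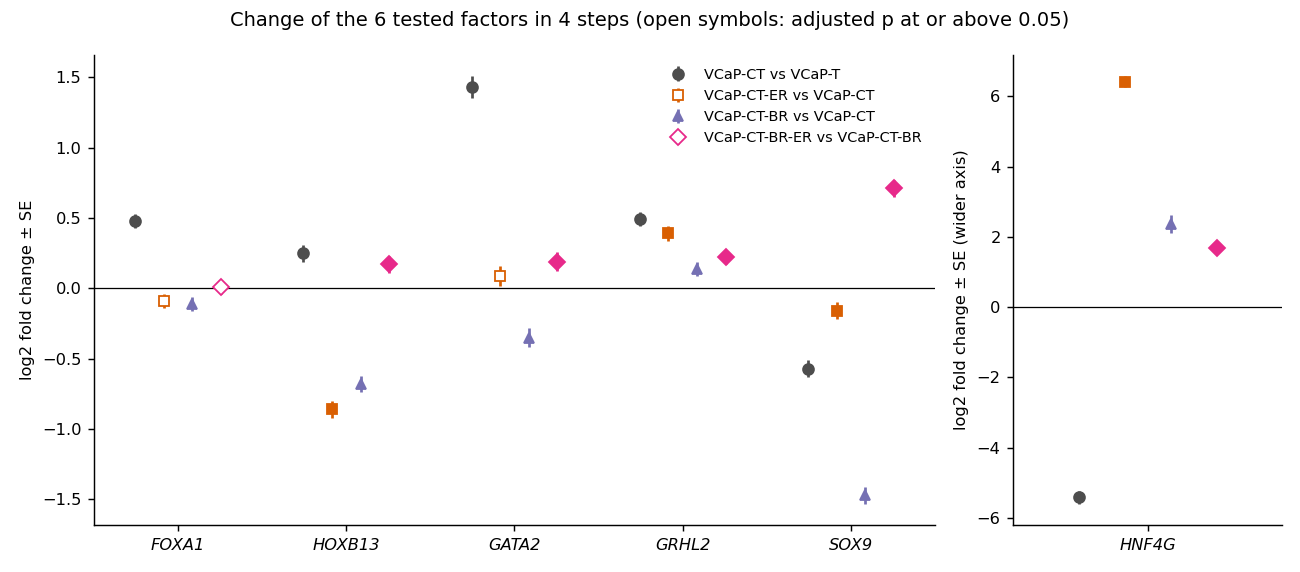
Log2 fold change (edgeR, points) with its standard error (bars) of the 6 tested factors in 4 steps, HNF4G on a wider axis at right, with open symbols where the adjusted p was 0.05 or above. In the left panel GATA2 stands out in the testosterone step at 1.43 and SOX9 in the bicalutamide step at −1.47. HNF4G, at right, runs from −5.41 in the testosterone step to 6.42 in the first enzalutamide step.

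The 2 enzalutamide steps were then compared with each other in the same fit, as the first change minus the second, to ask whether the response depends on earlier growth under bicalutamide. HOXB13 and SOX9 fell in the first background and rose in the second, with differences of −1.03 ± 0.08 (adjusted p = 2.37e-09) and −0.88 ± 0.08 (adjusted p = 2.94e-08) on the log2 scale. HNF4G rose in both, by 4.75 ± 0.26 more in the first (adjusted p = 4.68e-12). GRHL2 also rose in both, and its difference of 0.17 ± 0.07 (adjusted p = 0.0387) was lost with upper quartile scaling, without the filter (adjusted p = 0.0589 in both) and without any of 6 single libraries (VCaP-CT replicate 3, VCaP-CT-ER replicate 2 and replicate 3, VCaP-CT-BR replicate 1, VCaP-CT-BR-ER replicate 1 and replicate 3, adjusted p of 0.0513 to 0.0901). FOXA1 at −0.09 (95% interval −0.24 to 0.05) and GATA2 at −0.10 (−0.34 to 0.13) were not called. The 4 called members compare with 49.7% of all genes called in this test.

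Among the 6 further pairs of sublines, all 6 tested members differed from VCaP-T in each antagonist-grown subline, where 69.0% (VCaP-CT-ER), 71.2% (VCaP-CT-BR) and, after the second enzalutamide step, 70.2% of all genes were called. FOXA1, GATA2 and GRHL2 were higher and HOXB13 and SOX9 lower than in VCaP-T in each of these sublines. HNF4G was above VCaP-T in VCaP-CT-ER and below it in the others, by −3.04 on the log2 scale in VCaP-CT-BR and −1.38 after the second enzalutamide step. Against VCaP-CT-ER, 5 members were called in VCaP-CT-BR (55.9% of all genes) and 4 after the second enzalutamide step (45.9%). Against VCaP-CT, 4 were called in VCaP-CT-BR-ER (52.5%). FOXA1 was not called in any of these last 3 pairs, GRHL2 not in the second (log2 −0.03, adjusted p = 0.663) and GATA2 not in the third (log2 −0.16, adjusted p = 0.0674). In the third pair FOXA1 and GATA2 passed with upper quartile scaling (adjusted p of 0.00899 and 0.023), with a minimum of 10 counts required per library (0.029 and 0.0484) and without VCaP-CT replicate 3 (0.0116 and 0.00399). GATA2 passed there also without the filter (0.0178) and without VCaP-CT-BR-ER replicate 2 (0.0464).

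HNF4G was set beside 19 genes of gut and liver, of which 11 were tested. The counts of this and the later lists stand beside the shares of all genes called in each step, given above. In the testosterone step 3 rose and 7 fell, with a median log2 change of −1.72 against 0.03 over all genes. In the first enzalutamide step 8 rose and 2 fell, with a median of 1.19 against −0.02. CDH17, an intestinal cadherin, fell 66.3-fold in the testosterone step (adjusted p = 1.54e-17) and rose 17.8-fold in the first enzalutamide step (adjusted p = 6.33e-14), to 9.51 ± 1.29 CPM (SD, n = 3) against 35.3 ± 0.987 CPM in VCaP-T. APOH, a liver plasma protein, went from 1.94 to 0.644 and then to 27.2 CPM in these 3 sublines. MUC13, an intestinal mucin, had 54, 66 and 81 counts in VCaP-T, at most 4 in VCaP-CT, 41, 43 and 33 in VCaP-CT-ER and at most 1 in each of the 6 others. The list did not move as one, and TTR, a plasma carrier of thyroid hormone, rose in the testosterone and the first enzalutamide step, by 2.23 and 1.19 on the log2 scale (adjusted p of 4.42e-14 and 5.8e-11). In the bicalutamide step 2 rose and 4 fell, and in the second enzalutamide step 2 rose and 2 fell, CDH17 among those that fell, from 0.921 to 0.0433 CPM (adjusted p = 2.93e-07).

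**Figure D3:**
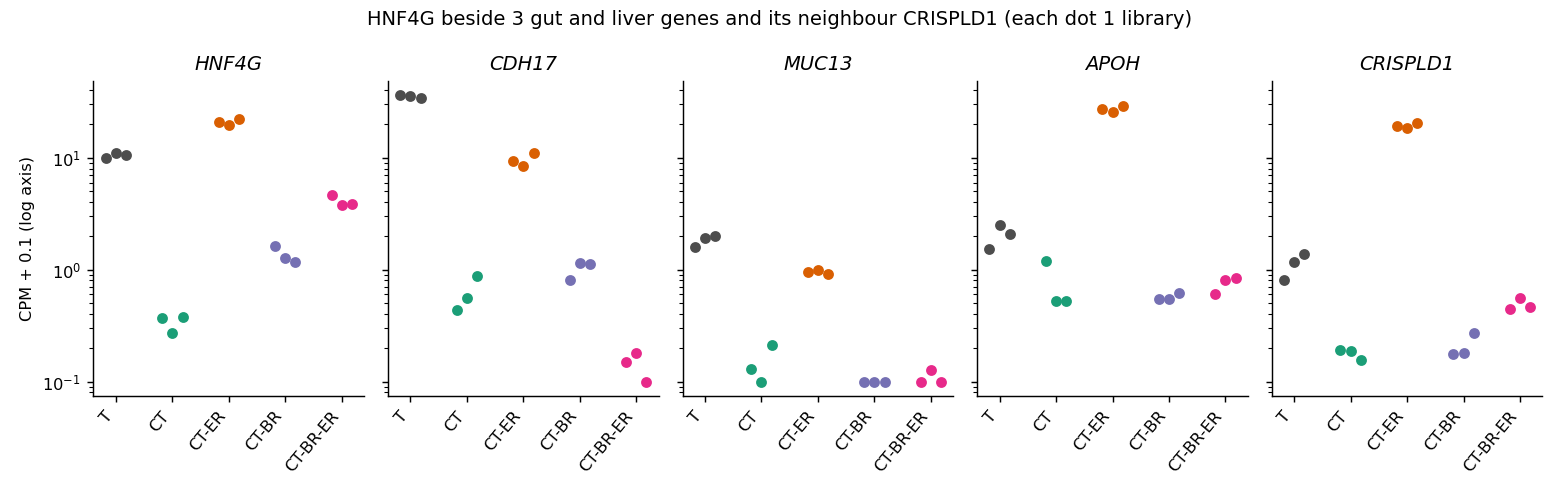
Level of HNF4G, of 3 gut and liver genes and of CRISPLD1, the only tested gene within 500 kb of HNF4G, in each of 15 libraries (CPM + 0.1, log axis). HNF4G and CDH17 are high in VCaP-T, low in VCaP-CT and again higher in VCaP-CT-ER, where APOH and CRISPLD1 reach 27.2 and 19.2 CPM.

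SOX9 was set beside 15 genes of cartilage and other genes known to lie downstream of SOX9, 11 of them tested. In the bicalutamide step, where SOX9 fell most, 1 rose and 6 fell (median −1.15 against −0.02 over all genes). COL27A1, a fibrillar collagen, fell 3.16-fold (adjusted p = 5.68e-08) and COL9A2 2.65-fold (adjusted p = 6.71e-09). In the second enzalutamide step, where SOX9 rose, 6 rose and none of the 11 fell by edgeR, also at an unadjusted p under 0.05 or with DESeq2 (0 in both; median 0.91 against 0.00), with TCF7L2, a Wnt pathway factor, 4.82-fold up (adjusted p = 2.4e-12) and COL27A1 2.60-fold up (adjusted p = 1.27e-06). In the testosterone step 2 rose and 7 fell, and in the first enzalutamide step 5 rose and 3 fell. COL27A1 rose 2.73-fold in the testosterone step (adjusted p = 1.27e-07), while SOX9 fell.

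GRHL2 was set beside 17 genes, namely epithelial genes and their repressors ZEB1 and ZEB2. Of these 15 were tested, and CDH1 and EPCAM are also luminal markers above. While GRHL2 rose in the testosterone step, 3 of these rose and 9 fell (median −0.50). LSR, a tricellular junction protein, fell 2.71-fold (adjusted p = 2.3e-10) and ESRP1, an epithelial splicing regulator, 2.66-fold (adjusted p = 2.46e-16). In the first enzalutamide step 3 rose and 7 fell, among them RAB25, a small GTPase of epithelial trafficking, 3.6-fold (adjusted p = 6.36e-16). In the bicalutamide step 1 rose and 8 fell. In the second enzalutamide step 8 rose and 1 fell (median 0.29), with CDH3, P-cadherin, 2.96-fold up (adjusted p = 3.25e-06) and OVOL1, an epithelial zinc finger factor, 1.73-fold down (adjusted p = 2.65e-06).

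Of 14 paralogues of the members, 9 were tested. None of the 9 rose in the testosterone step by edgeR, also at an unadjusted p under 0.05 or with DESeq2 (0 in both), and 6 fell (median −0.71), among them GRHL1, 2.30-fold (adjusted p = 8.43e-11), and GATA6, 1.89-fold (adjusted p = 6.63e-08), in the step in which GRHL2 and GATA2 rose. HOXA13, a posterior HOX factor like HOXB13, was not called in that step (log2 0.05, adjusted p = 0.486), and rose by 0.47 and 0.39 on the log2 scale in the first enzalutamide and the bicalutamide step, where HOXB13 fell. Over the 3 later steps 5, 2 and 1 paralogues rose and 3, 3 and 2 fell.

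**Figure D4:**
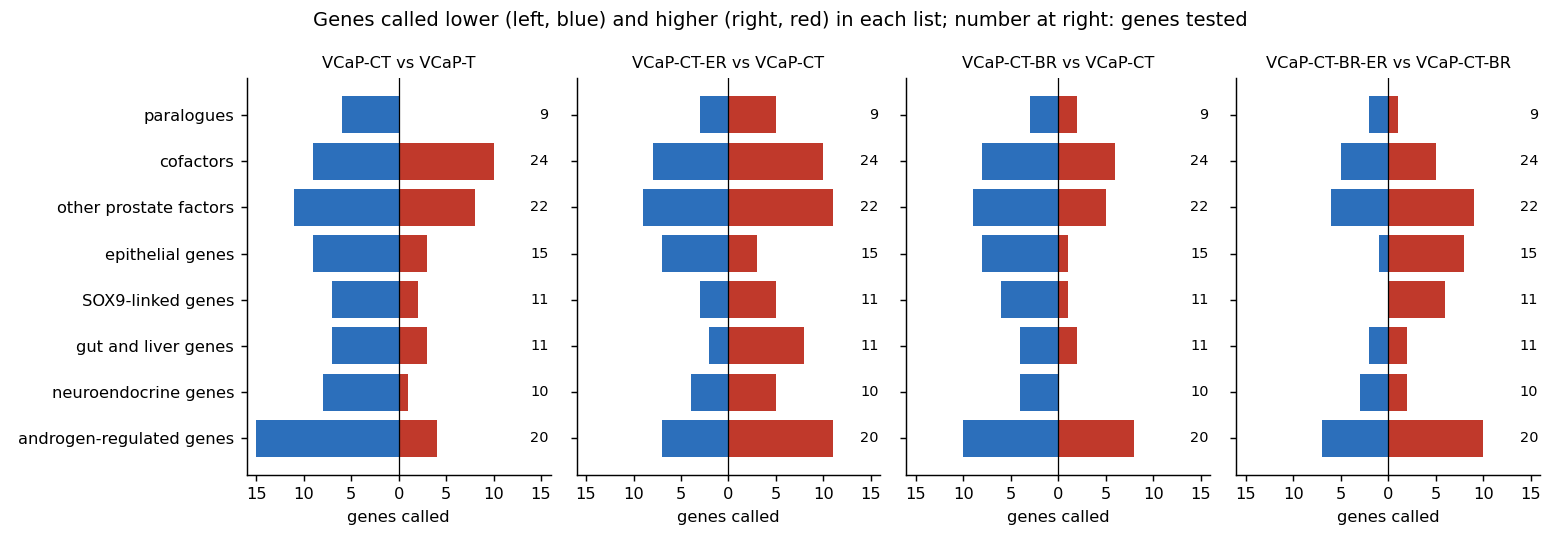
Number of genes called higher (right) and lower (left) by edgeR in 8 gene lists set beside the factors, in 4 steps, with the number tested at the right edge. Of 11 tested genes linked to SOX9, 6 fell in the bicalutamide step and 6 rose in the second enzalutamide step, and of 11 tested gut and liver genes 8 rose in the first enzalutamide step.

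Within 500 kb of the 7 members, 43 neighbouring genes were tested, of which 14 were called higher and 17 lower in the testosterone step, and 19 and 11 in the first enzalutamide step. The 2 later steps gave 8 and 16, and 15 and 6. These totals, 72.1%, 69.8%, 55.8% and 48.8% of the neighbours, lay within 10 percentage points of the share of all genes called in the same steps. FOXA1 (ENSG00000129514.5, chr14:37589984-37596059, minus strand, GRCh38) is overlapped on the other strand by TTC6. TTC6 rose with FOXA1 in the testosterone step, by 0.63 (adjusted p = 3.41e-08), and then fell in each of the 3 other steps, by −0.95, −0.56 and −0.58, while the FOXA1 values were −0.09, −0.11 and 0.01. Reads were counted without strand. Fragments over exons of both genes were thus counted for neither, and those over exons of only 1 of the 2 for that gene, whichever strand they came from. MIPOL1, the nearest tested protein-coding gene on the other side at 37.6 kb, had changes of −0.37, −0.22, 0.28 and −0.32, all called.

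GATA2 (ENSG00000179348.11, chr3:128479427-128493185, minus strand) is overlapped by its antisense gene GATA2-AS1, which was lower in the testosterone step by −0.31 (adjusted p = 0.00186) while GATA2 rose by 1.43. GATA2-AS1 rose by 0.77 in the bicalutamide step (adjusted p = 5.59e-08) and fell by 0.45 in the second enzalutamide step (adjusted p = 5.71e-05), opposite to GATA2 both times, and the same limit on strand holds here. In the first enzalutamide step GATA2-AS1 rose by 0.34 (adjusted p = 0.000875), where GATA2 was at 0.09 and not called. EEFSEC, a translation factor gene at 70.8 kb, rose with GATA2 in the testosterone step (0.49, adjusted p = 1.84e-06) and fell with it in the bicalutamide step (−0.67, adjusted p = 4.9e-08), and RPN1, an endoplasmic reticulum protein gene at 127 kb on the other side, was not called in either (−0.09 and −0.06).

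HOXB13 (ENSG00000159184.7, chr17:48724763-48729178, minus strand) lies at the end of the HOXB cluster. The cluster members at 91.2 to 119.8 kb, HOXB7, HOXB9 and HOXB6, were lower by −2.81, −3.11 and −2.78 in the testosterone step, in which HOXB13 rose, and rose by 1.86, 2.41 and 0.90 in the first enzalutamide step, in which HOXB13 fell. HOXB9 and HOXB6 were low, at 0.155 and 0.251 CPM in VCaP-CT, and that HOXB6 rise had an adjusted p of 0.0468. None was called in the bicalutamide step (adjusted p of 0.445, 0.849 and 0.247), in which HOXB13 fell. In the second enzalutamide step HOXB7 and HOXB9 rose with HOXB13 (1.05 and 1.96, adjusted p of 0.000647 and 0.000602). HOXB6 was not called there (1.11, adjusted p = 0.0516). PRAC1 and PRAC2, small prostate genes that lie next to HOXB13, followed HOXB13 in the bicalutamide step (−0.75 and −0.67, adjusted p of 1.66e-07 and 6.98e-06) and in the second enzalutamide step (0.58 and 0.60), but rose in the first enzalutamide step (0.21 and 0.73, adjusted p of 0.0274 and 3.9e-07). In the testosterone step, in which HOXB13 rose, PRAC2 was lower by −0.48 (adjusted p = 8.83e-05) and PRAC1 was at 0.10 (adjusted p = 0.267). TTLL6, at 33.1 kb on the other side, changed by −2.51 in the testosterone step and by 1.54 in the first enzalutamide step, opposite to HOXB13. It went with HOXB13 in the bicalutamide step (−1.03) and the second enzalutamide step (0.65).

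**Figure D5:**
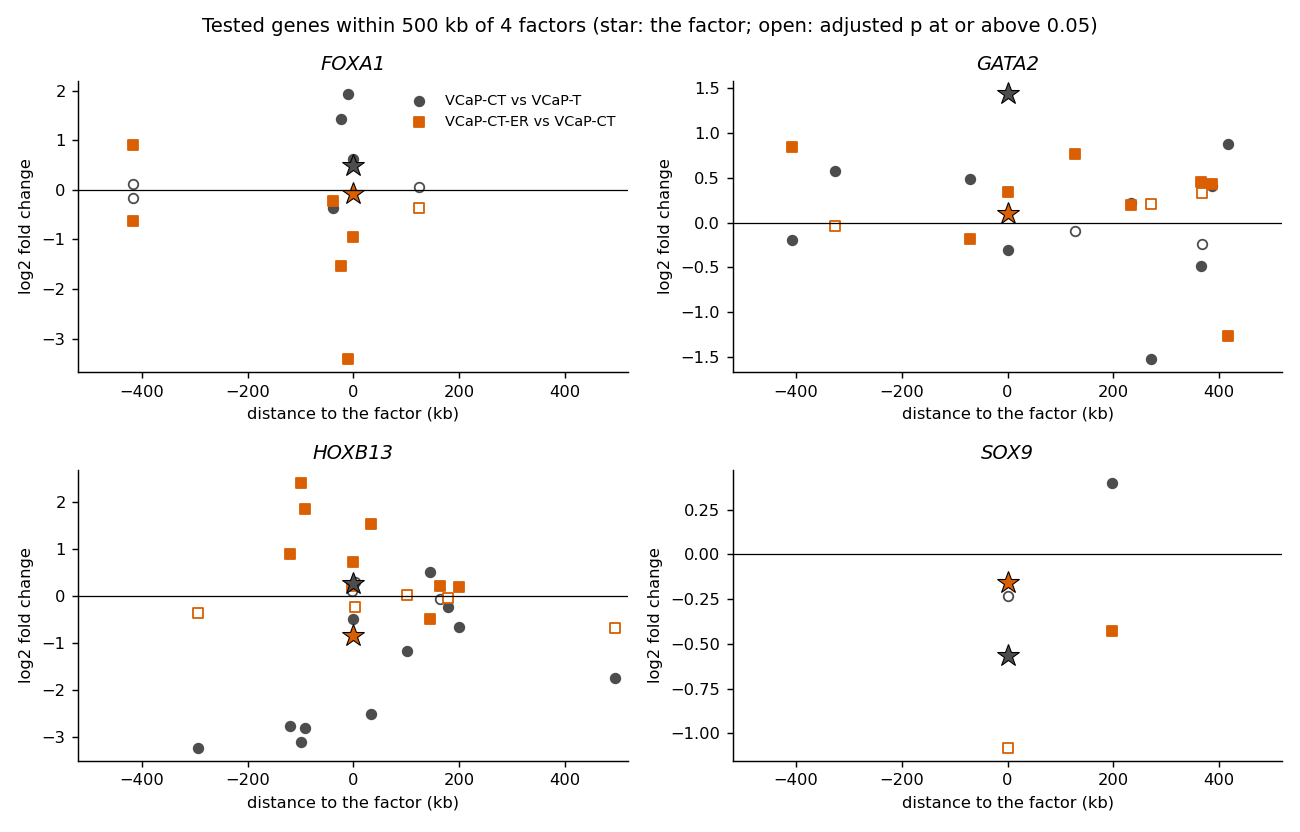
Log2 fold change of the tested genes within 500 kb of FOXA1, GATA2, HOXB13 and SOX9 by distance from the factor (kb), for the testosterone step (circles) and the first enzalutamide step (squares), with the factor as a star and open symbols where the adjusted p was 0.05 or above. Beside HOXB13, at 0.25 and −0.86, HOXB9 is at −3.11 and 2.41, and beside GATA2, at 1.43, GATA2-AS1 is at −0.31.

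Few neighbours were tested around the others. GRHL2 (ENSG00000083307.11, chr8:101492432-101669726, plus strand) is overlapped by 3 antisense noncoding genes and has NCALD, a neuronal calcium sensor, at 16.8 kb. NCALD rose with GRHL2 in the testosterone step (0.65, adjusted p = 7.92e-09) and the second enzalutamide step (1.66, adjusted p = 2.41e-14), and changed by −1.16 and −1.67 in the first enzalutamide and the bicalutamide step, where GRHL2 rose. SOX9 (ENSG00000125398.6, chr17:72121020-72126420, plus strand) is overlapped by SOX9-AS1, so that the limit on strand holds for both, and has no tested protein-coding gene within 500 kb. LINC00511, 197 kb away, rose where SOX9 fell in the testosterone and the bicalutamide step (0.40 and 0.43) and was lower by −1.79 (adjusted p = 2.79e-12) in the second enzalutamide step, where SOX9 rose. In the first enzalutamide step both were lower, LINC00511 by −0.43 (adjusted p = 0.000266). HNF4G (ENSG00000164749.11, chr8:75407914-75566843, plus strand) has no overlapping gene and 1 tested neighbour, CRISPLD1, a secreted protein gene at 373 kb. CRISPLD1 had 26, 39 and 54 counts in VCaP-T and 3, 3 and 2 in VCaP-CT. It had 917, 874 and 823 counts in VCaP-CT-ER, 3, 3 and 7 in the libraries of VCaP-CT-BR, and 14, 17 and 14 after the second enzalutamide step. Within 1 Mb of HNF4G 6 genes were tested, and all 6 rose in the first enzalutamide step (median 4.82), beside 48 of the 118 tested within 1 Mb of any member. In the testosterone step 1 of the 6 rose and 3 fell, in the bicalutamide step 2 rose, and in the second enzalutamide step 2 rose and 4 fell. FOXA2 (ENSG00000125798.14, chr20:22581005-22585455, minus strand) also has 1 tested neighbour within 500 kb, THBD, thrombomodulin, at 460.2 kb. THBD rose by 1.83 in the testosterone step (adjusted p = 3.34e-07). FOXA2 is overlapped on the same strand by ENSG00000283932.1, and fragments over exons of both would be counted for neither. The part of this overlap in the low FOXA2 counts was not tested.

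For the 3 members whose subline means spanned at least 2-fold and reached 1 CPM (log2 spans of 1.51 for GATA2, 2.04 for SOX9 and 6.39 for HNF4G), the genes with the most similar course over the 15 libraries were sought among 13052 genes, by the root mean square difference of log2 CPM after each gene was centred on its mean. The 15 points are 3 libraries of each of 5 sublines, so that they are not independent, and the measure describes the libraries only. Nearest to HNF4G were RAMP1, a receptor activity modifying protein, FAR2P2 and CYP4F62P, at 0.35, 0.47 and 0.54 log2 units. RAMP1 was at 28.7 CPM in VCaP-T, 0.599 CPM in VCaP-CT and 37.1 CPM in VCaP-CT-ER, and at 2.75 and 8.16 CPM before and after the second enzalutamide step. It was picked for its likeness to HNF4G in these libraries, so the order of sublines that both share is no separate result. FAR2P2 and CYP4F62P are pseudogenes, whose counts can be affected by reads shared with near-identical copies. Nearest to SOX9 were PADI2, GADD45A and TEX45 at 0.16, 0.19 and 0.19, and nearest to GATA2 were MELTF-AS1, ENO2 and TFAP2A at 0.13, 0.14 and 0.16. ENO2, the neuron-specific enolase, went from 21.9 to 67.3 CPM in the testosterone step, and TFAP2A, an epithelial AP-2 factor, from 6.69 to 14.8 CPM. Both were picked for their likeness to GATA2, so their rise in that step is no separate result.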

How the data were processed

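Raw counts per gene were deposited by the authors. Per the labels and the study's methods, reads were aligned to GRCh38 with STAR 2.5.4b and paired fragments were counted over exons with featureCounts 1.6.2 on GENCODE 28, without strand, so that fragments shared by overlapping genes are counted for neither. Symbols came from GENCODE 44 by Ensembl identifier (57754 of 58381 genes). Promoter sequences were RefSeq's (GRCh38.p14).

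Counts were tested in R 4.3.3 with edgeR 4.0.16 (filterByExpr with a minimum count of 10, TMM, 1 term per subline over 15 libraries, quasi-likelihood F test, Benjamini-Hochberg adjustment over 19621 genes, threshold 0.05). The biological coefficient of variation was 0.0609. SE is the log2 fold change divided by the root of F, and 95% intervals use 10 degrees of freedom. TPM were computed from counts and exon lengths. The fit was tested on simulated data. Libraries totalled 33665716 to 46935279 counts and correlated at 0.9939 or more within and at most 0.9747 between sublines (log2 CPM), and no replicate pair agreed within sampling noise.

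All 7 members were named in every comparison. From each gene list the 2 largest called rises and falls per step (average log2 CPM of at least 1) could be named, from each 500 kb window the nearest tested protein-coding neighbours and any called with a log2 change of at least 1, and 3 genes of most similar course for each member that spanned at least 2-fold. The text names fewer, and MUC13, GATA2-AS1, PRAC1 and single cell type markers fall outside the rule and were named after their values were seen. Some genes of the lists are counted in the totals but not reported here singly. Members and lists were chosen with earlier results of these data known. Alternatives were DESeq2 1.42.0, RLE and upper quartile scaling, other filters, fits of only the sublines compared, the replicate block, each library left out and a change of at least 2-fold. Python 3.11.15, pandas 2.3.3, numpy 2.4.6 and matplotlib 3.10.9 were used.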

Additional observations from a re-analysis of the deposited data

Results flagged for a closer look

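The change under enzalutamide differed between the VCaP-CT background and the bicalutamide-grown one for 4 of the 6 tested factors, by the test of the difference itself (edgeR, adjusted p under 0.05), and these 4 are listed for that reason. The log2 differences, first background minus second, were −1.03 for HOXB13, −0.88 for SOX9, 4.75 for HNF4G and 0.17 for GRHL2. HOXB13 and SOX9 were called in opposite directions in the 2 backgrounds, and HNF4G and GRHL2 rose in both. Of these single calls, the SOX9 fall in the first background (−0.16) was lost without the filter and without any of 4 libraries, and the HOXB13 rise in the second (0.17) without either of 2 libraries, as given above. The GRHL2 difference was lost in 8 of the alternatives. With 49.7% of all genes called in the same test, such a difference was common.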

How the results depend on the processing

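With a change of at least 2-fold also required, the members called fell to 2, 1, 2 and 1 in the testosterone, first enzalutamide, bicalutamide and second enzalutamide steps, to 2 in the difference between enzalutamide steps and to 12 over the 6 other pairs of sublines. In the same order of steps and difference, the listed genes called fell to 43, 43, 21, 22 and 37, and all genes called to 4084, 3442, 1954, 1565 and 3106, from 12821, 11941, 10429, 8419 and 9753. At 2-fold, all genes called against VCaP-T were 4974 for VCaP-CT-ER, 5391 for VCaP-CT-BR and 5314 for VCaP-CT-BR-ER, of 19621 tested. Against VCaP-CT-ER they were 2774 for VCaP-CT-BR and 1911 for VCaP-CT-BR-ER, and against VCaP-CT 2452 for VCaP-CT-BR-ER. With each library left out in turn, members called ranged from 6 to 7, 3 to 5, 4 to 6, 3 to 5 and 3 to 4, and over the 6 other pairs from 31 to 38. FOXA2 was a further tested member in 13 of these fits, so the upper ends can include it. With all libraries 31 were called over the 6 other pairs, where 45.9% to 71.2% of all genes were called per pair. Listed genes called ranged from 94 to 101, 89 to 96, 69 to 76, 64 to 69 and 77 to 82, and all genes called from 12185 to 13059, 11198 to 12105, 9167 to 10566, 7361 to 8675 and 9029 to 9817. In the second enzalutamide step 3 members were called without VCaP-CT-BR replicate 1 or without VCaP-CT-BR-ER replicate 2, where 5 were called with all libraries. FOXA1 in that step, not called under any setting, ranged from −0.01 without VCaP-CT-BR-ER replicate 1 (adjusted p = 0.941) to 0.04 without VCaP-CT-BR replicate 3. The cause of these shifts was not tested. FOXA2 passed the filter in 13 fits that left out a library, and it did not pass without VCaP-T replicate 1 or replicate 3. Only these 2 libraries held more than 10 counts, 28 and 20, so FOXA2 passed through the subline in which it is high. Its log2 change in the testosterone step ran from −2.98 to −1.84 in the 13 fits, which are therefore no separate check of that change. The replicate numbers do not pair the libraries (the mean correlation of deviations of same-numbered libraries lay between −0.211 and 0.206 over the 10 pairs of sublines, and the lowest was below 0 in each pair), and with the replicate block 12727, 11861, 10322, 8378 and 9659 genes were called. The block ended 1 call of a member, FOXA1 in VCaP-CT-BR against VCaP-CT (adjusted p = 0.0552), and no other. With the 5 subline means in place of 15 libraries, 1 of the 3 genes nearest to GATA2 and 2 of the 3 nearest to SOX9 and to HNF4G stayed in the list.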

Other observations

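Of 24 tested cofactors of the members, 10 rose and 9 fell in the testosterone step, 10 and 8 in the first enzalutamide step, 6 and 8 in the bicalutamide step, and 5 and 5 in the second enzalutamide step. Over all genes, 33.1% were called higher and 32.2% lower in the testosterone step. The later steps gave 29.6% and 31.2%, 26.1% and 27.0%, and 21.2% and 21.7%. TLE1, a Groucho corepressor that binds FOXA1, fell in all 4 steps, with 33.4 CPM in VCaP-T against 15.2 CPM in VCaP-CT, from there to 1.76 CPM under enzalutamide and 11.3 CPM under bicalutamide, and to 5.6 CPM in VCaP-CT-BR-ER. MEIS3, of the family of HOX cofactors, fell 3.20-fold in the testosterone step (adjusted p = 1.32e-11, edgeR), and NCOA2, a nuclear receptor coactivator, rose 1.91-fold (adjusted p = 2.22e-11). NCOA1, its relative, fell 2.14-fold in the first enzalutamide step (adjusted p = 1.66e-12).

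Of 22 other tested prostate factors, 8 rose and 11 fell in the testosterone step, and 11 and 9, 5 and 9, and 9 and 6 in the later ones. NFIX, a nuclear factor I protein, was at 80.2 CPM in VCaP-T and 94.3 CPM in VCaP-CT, then 24.8 CPM in VCaP-CT-ER, and 34.2 and 70.5 CPM before and after the second enzalutamide step. CUX2, a cut homeobox factor, fell 5.87-fold in the first enzalutamide step and 3.11-fold in the bicalutamide step (adjusted p of 1.01e-18 and 6.44e-15). Of 10 tested neuroendocrine genes, set beside FOXA2, 1 rose and 8 fell in the testosterone step (median −2.33). CHGB, a granule protein, fell 179-fold (adjusted p = 2.57e-22), SCG3 22.6-fold (adjusted p = 2.08e-19) and SYP, synaptophysin, 5.40-fold (adjusted p = 5.75e-15). In this step FOXA2, with at most 28 counts in a library, was also lower without the filter, though the libraries of both sublines overlapped. ONECUT2, an endoderm and neuroendocrine factor, rose 1.84-fold (adjusted p = 2.39e-09). In the later steps 5, 0 and 2 rose and 4, 4 and 3 fell (the count of 0 was the same at an unadjusted p under 0.05 and with DESeq2), and SCG2, a secretogranin, went from 0.2 to 12.3 CPM in the first enzalutamide step (adjusted p = 1.28e-15). Of 20 androgen-regulated genes, 4 rose and 15 fell in the testosterone step, and 11 and 7, 8 and 10, and 10 and 7 in the later ones. KLK3, the gene of prostate-specific antigen and also a prostate marker above, fell 107-fold in the testosterone step (3560 to 33.2 CPM, adjusted p = 1.3e-25) and rose 15.7-fold in the first enzalutamide step (adjusted p = 1.95e-22), and HPGD, a prostaglandin dehydrogenase, fell 94.9-fold and rose 10.9-fold (adjusted p of 2.16e-22 and 7.51e-19). The largest change of the list in the first enzalutamide step was a fall, of TRPM8, a cold-sensing ion channel, 669-fold (203 to 0.302 CPM, adjusted p = 1.22e-23). STEAP4, a metalloreductase, fell 17.7-fold (1.75 to 0.0982 CPM, adjusted p = 4.74e-10), with 3 to 6 counts per library in VCaP-CT-ER, near the floor. FOXA1, HOXB13 and GATA2 had risen in the testosterone step.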
